A study of Mus musculus with 27 samples.

Results

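Epithelial cells and macrophages of the healthy mouse lung, which share the airspace, were compared by RNA sequencing of sorted cells. Of the 27 libraries in the series, 5 were chosen by their cell type labels. WT8, WT9 and WT10 are 3 libraries of cells labelled Epcam+CD11b-CD11c- epithelial cells, and WT1 and WT2 are 2 libraries of cells labelled CD11c+CD11b- macrophages. All came from perfused, dissociated lungs of C57BL/6 mice labelled WT and without tumour, so both groups share strain, tissue and state and differ in the surface markers used for sorting. The rest of the series holds other WT lung populations and cells from lungs that carry tumours of HKP1, a lung cancer cell line. From those, WT neutrophils (WT5, WT6 and WT7) served as a second leukocyte population, and WT monocytes (WT3 and WT4) and unsorted WT lung cells (WT11, WT12 and WT13) are quoted where a value bears on a result. No label says that the libraries of a group came from separate mice, so a p-value measures only the spread between these libraries, which may be technical.

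The lung surface is lined by several kinds of epithelial cell. Alveolar type I cells are thin and carry gas exchange, alveolar type II cells make surfactant (a film of lipids and proteins), and club and ciliated cells line the airways. These cells are joined by tight junctions and desmosomes and braced by keratin filaments. Alveolar macrophages live on top of this lining, clear particles and spent surfactant, and depend on the cytokine GM-CSF made by the epithelium. In mouse lung they are usually sorted as cells with CD11c (Itgax) and without CD11b (Itgam).

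Expression was given by the authors as FPKM, fragments per kilobase of transcript scaled to the mapped fragments of the library, a level that may be compared between genes. Each library had 9679 to 11109 genes at 1 FPKM or more. On the scale log2(FPKM + 1), Pearson's r across genes was 0.968 to 0.984 between epithelial libraries, 0.995 between the macrophage libraries and 0.762 to 0.777 across the groups. The reads behind the values were not analysed here. The spacing of the lowest values put the depth of WT2, WT8, WT9 and WT10 at about 1.05, 0.690, 0.798 and 0.773 of WT1, a rough guide that rests on 20 to 69 genes a library. WT9 stood apart among the epithelial libraries. It held the highest value of 36 of 47 macrophage and leukocyte list genes and of 13 of 13 ciliated genes, and its part in single results was tested by leaving it out.

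The sort genes bore out the macrophage label and left Epcam as a matter of degree. Itgax read 344 and 349 FPKM in the macrophage libraries WT1 and WT2 and 1.72, 5.69 and 2.27 FPKM in the epithelial libraries WT8, WT9 and WT10. Itgam was near absent on both sides, at 1.20 and 1.40 FPKM and 1.02, 1.27 and 0 FPKM. Marco, a scavenger receptor of alveolar macrophages, read 155 and 174 FPKM in macrophages and 0.168, 1.60 and 0.0936 FPKM in epithelium, where its highest value was in WT9. Epcam, the adhesion molecule used to sort the epithelium, read 89.5, 77.4 and 94.3 FPKM there but also 47.7 and 43.02 FPKM in macrophages. The groups did not overlap for Itgax, Marco or Epcam. The macrophage mean of Epcam was 52.1% of the epithelial mean, a log2 difference of 0.92 (SE 0.12, limma, adjusted p = 0.000715). The label of the macrophage gate names no Epcam, and the same transcript read 0.817, 0.410 and 1.53 FPKM in WT neutrophils and 1.20 and 0.195 FPKM in WT monocytes.

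Promoters are shown for 4 genes that mark the ends of the comparison and the ground between: Marco (macrophages), Muc1 (epithelium), Krt79 (a keratin of these macrophages) and Epcam (both). Each line gives the 250 bases before the gene's start from RefSeq (build GRCm38.p6), 5′ to 3′ on the gene's own strand. Capitals mark GAGGAA, the core of sites for the macrophage factor PU.1, and CAAGTG, the core of sites for the lung epithelial factor NKX2-1, each searched on both strands.
Marco: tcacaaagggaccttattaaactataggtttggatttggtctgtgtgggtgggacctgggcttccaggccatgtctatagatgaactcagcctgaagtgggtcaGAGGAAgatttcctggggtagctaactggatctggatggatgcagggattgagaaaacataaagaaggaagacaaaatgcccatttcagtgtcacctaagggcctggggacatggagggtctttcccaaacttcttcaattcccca
Muc1: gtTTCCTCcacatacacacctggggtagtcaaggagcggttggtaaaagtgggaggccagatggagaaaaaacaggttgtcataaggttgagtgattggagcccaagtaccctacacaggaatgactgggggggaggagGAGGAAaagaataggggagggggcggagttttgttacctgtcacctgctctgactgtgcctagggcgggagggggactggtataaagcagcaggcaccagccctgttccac
Krt79: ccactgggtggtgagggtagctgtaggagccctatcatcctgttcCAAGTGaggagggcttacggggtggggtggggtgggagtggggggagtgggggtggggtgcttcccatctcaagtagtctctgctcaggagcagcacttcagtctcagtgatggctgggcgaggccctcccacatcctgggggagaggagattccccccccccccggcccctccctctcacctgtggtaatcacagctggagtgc
Epcam: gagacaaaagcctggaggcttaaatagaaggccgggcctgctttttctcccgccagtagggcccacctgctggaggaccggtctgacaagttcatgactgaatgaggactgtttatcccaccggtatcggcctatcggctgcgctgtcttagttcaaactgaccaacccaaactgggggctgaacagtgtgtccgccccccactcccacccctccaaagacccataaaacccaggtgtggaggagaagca
These windows are chr1:120505025-120505274 (minus strand) for Marco, chr3:89228806-89229055 (plus strand) for Muc1, chr15:101940325-101940574 (minus strand) for Krt79 and chr17:87635729-87635978 (plus strand) for Epcam. GAGGAA was found 1 time in the Marco window and 2 times in the Muc1 window, and CAAGTG 1 time in the Krt79 window. Among all 32851 RefSeq promoter entries, 23.3% held GAGGAA and 11.6% held CAAGTG in the same window. The matches describe letters in these windows and nothing about binding.

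Most genes differed between the populations. Of 11523 genes that reached 1 FPKM in 2 or more of the 5 libraries, 4771 (41.4%) were higher in epithelium and 2617 (22.7%) were higher in macrophages at an adjusted p under 0.05 (limma on log2(FPKM + 1), Benjamini-Hochberg), or 64.1% in all. The 2 groups did not overlap in 78.9% of the genes tested. Differences of at least 1 log2 unit counted 3236 genes higher in epithelium and 1623 higher in macrophages, and those of at least 5 units 153 and 93. The median difference over all genes was 0.29 log2 units toward the epithelium, and became -0.04 when libraries were quantile-normalized and 0.13 when they were scaled to the upper quartile. The split of calls moved with it, to 3297 higher in epithelium and 3506 higher in macrophages under quantile normalization and to 4174 and 3190 under upper-quartile scaling. Every difference below is epithelium minus macrophage, and the median of 0.29 is the level to read it against.

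**Figure D1:**
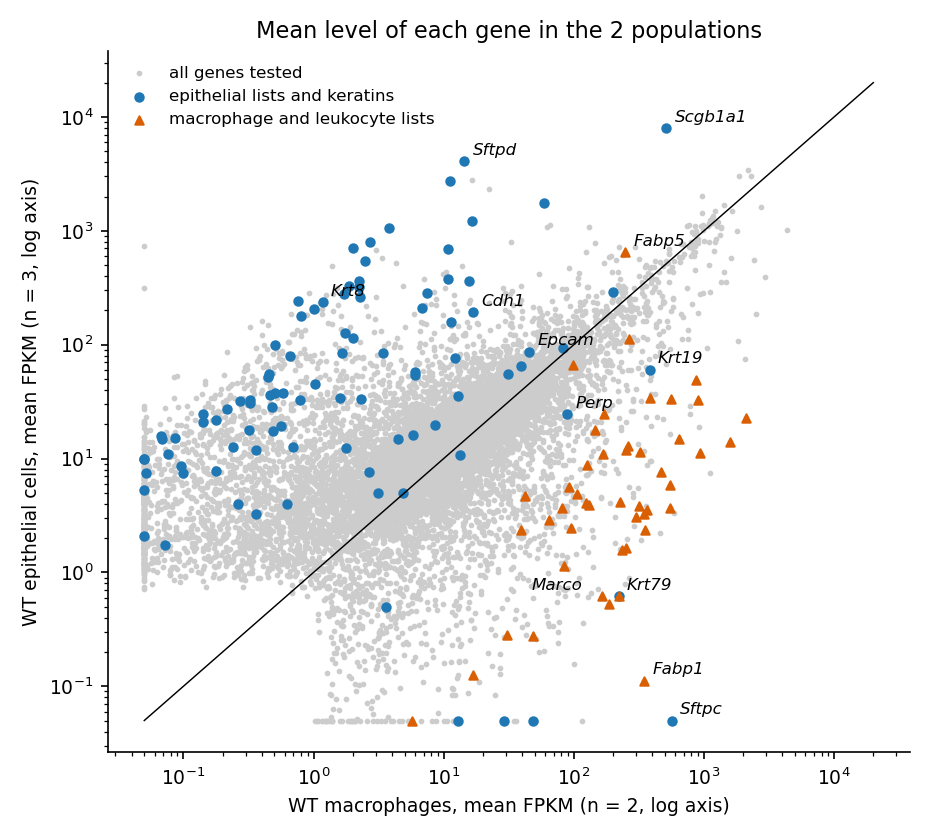
Mean FPKM of each tested gene in WT macrophages (x axis, 2 libraries, log axis) and WT epithelial cells (y axis, 3 libraries, log axis), with means under 0.05 drawn at 0.05 and the diagonal marking equal levels. Epithelial list genes lie mostly above the diagonal and macrophage list genes mostly below it, while Krt19, Perp and Krt79 lie on the macrophage side and Fabp5 on the epithelial side.

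With genes listed at 0 in a whole group left out, the 12 genes furthest toward the epithelium were Sftpd, S100g, Hc, Chi3l1, Lamp3, Lgi3, Lcn2, Wfdc2, Muc1, Chia, Egfl6 and Atp1b1, with differences from 8.07 down to 7.03. Sftpd, a collectin of surfactant, read 4205, 3383 and 4776 FPKM in epithelium and 16.9 and 11.8 FPKM in macrophages. Lamp3, a protein of the lamellar bodies that store surfactant, read 1125, 820.0 and 1212 FPKM against 4.98 and 2.65 FPKM. Hc, complement component C5, read 710.0, 546 and 842 FPKM against 2.44 and 1.60 FPKM. All 3 were high in every epithelial library and lowest in WT9. At the other end were Fabp1, Clec7a, Cxcl2, Tlr2, Atp6v0d2, Clec4n, Ltc4s, Krt79, Alox5ap, Tyrobp, Cidec and Fcer1g, from -8.29 to -6.96. Fabp1, a fatty acid binding protein, read 357 and 332 FPKM in macrophages and 0, 0.336 and 0 FPKM in epithelium. Clec7a, the fungal receptor Dectin-1, read 540.1 and 551 FPKM against 0.252, 16.9 and 0.289 FPKM, so that WT9 carried most of the little that the epithelial libraries held. Its difference was -7.48 with an SE of 1.12.

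Genes of epithelial junctions and adhesion were higher in epithelium for 33 of 37 members tested, against 41.4% of all genes, with a median difference of 3.98. Krt8 and Krt18, the keratin pair of simple epithelia, read 211, 263 and 236 and 178, 196 and 162 FPKM in epithelium and 1.05 and 1.30 and 0.690 and 0.924 FPKM in macrophages. Cldn3 and Cldn18, claudins of tight junctions, had differences of 6.85 and 6.79, and Cdh1 (E-cadherin) 3.44. Of the desmosome genes, Dsp read 16.8, 14.1 and 14.8 FPKM against 0.113 and 0.0602 FPKM and Pkp2 differed by 3.81, while Perp differed by -1.83. The remaining 4 members were Krt19 and Perp, higher in macrophages, and F11r and Marveld2, not called. Of the 47 keratins in the table, 11 were tested, with 6 higher in epithelium (Krt7, Krt8, Krt18, Krt23 and Krt80 among them), 3 higher in macrophages (Krt19, Krt79 and Krt4) and 2 not called (Krt5 and Krt15). Krt4 lost its call without macrophage replicate 1 (-1.90, adjusted p = 0.0579) or 2 (-1.56, adjusted p = 0.105), and Krt5 and Krt15 were called higher in epithelium without epithelial replicate 8 (1.99 and 2.03) and in the fit over all 10 groups (1.36 and 1.36), all by limma.

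Alveolar type II genes had the largest median of the 5 epithelial lists, 6.66, with 12 of 16 higher in epithelium. They ranged from Abca3, the lipid pump of lamellar bodies, at 4.41, to Sftpd at 8.07. The other 4 members, Sftpc, Sftpb, Sftpa1 and Slc34a2, are listed at exactly 0 in all 3 epithelial libraries. Without them the median was 7.19. Sftpc is listed at 649 and 486 FPKM in macrophages and 699, 441 and 1764 FPKM in neutrophils, and at 0 in all 3 unsorted lung libraries. Sftpb, Sftpa1 and Slc34a2 read 1407, 2159 and 1253, 911, 1375 and 829 and 360.1, 565 and 331 FPKM in those unsorted libraries. An exact 0 in such a table may be a failed estimate. The call of these 4 genes as higher in macrophages therefore carries no fold and no direction here. In all, 33 tested genes are listed at 0 in every epithelial library and 99 in both macrophage libraries.

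Alveolar type I genes were higher in epithelium for 12 of 14 members (median 2.88), with none higher in macrophages. Ager, a receptor abundant in type I cells, read 1183, 1047 and 1445 FPKM in epithelium against 18.1 and 14.9 FPKM, and the water channel Aqp5 281, 254 and 304 FPKM against 1.98 and 1.46 FPKM. Pdpn, another type I marker, was low in both, at 5.68, 5.05 and 4.26 and 4.99 and 4.72 FPKM, and was not called.

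Airway genes were higher in epithelium and varied widely between its libraries. Club cell genes were higher in epithelium for 7 of 8 members (median 3.49) and ciliated genes for 11 of 13 (median 3.34). Scgb1a1, the main club cell secretory protein, read 9405, 12155 and 2414 FPKM in epithelium and 358 and 665 FPKM in macrophages, a difference of 3.74 (SE 0.68, adjusted p = 0.00313). Foxj1, the regulator of motile cilia, read 31.4, 83.97 and 20.9 FPKM against 0.901 and 1.15 FPKM. Summed over the club list the levels were 9984, 13311 and 2728 FPKM in WT8, WT9 and WT10, and over the ciliated list 519, 1062 and 337 FPKM. WT9 was highest in 13 of 13 ciliated and 7 of 8 club genes, and WT10 was lowest in 13 and 6. Type II sums were closer, at 14025, 11145 and 15459 FPKM. Nothing in them comes from Sftpc, Sftpb, Sftpa1 and Slc34a2, which are listed at 0 in these libraries. Scgb3a2 lost its call without macrophage replicate 2 (difference 2.90), as did Scgb3a1 (1.84). Scgb3a1 also lost its call under quantile normalization (2.43) and upper-quartile scaling (2.62) and with a pseudocount of 5 (2.14). The same held without the filter, without the intensity trend and without epithelial replicate 8 (2.66) or 9 (2.07). Basal and neuroendocrine genes were near absent: 4 of 10 were tested, with Calca higher in epithelium, Syp higher in macrophages and all means under 5 FPKM. Calca (1.39) lost its call without macrophage replicate 1 (1.49) or 2 (1.29) and under quantile normalization (0.70, adjusted p = 0.154 by limma).

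**Figure D2:**
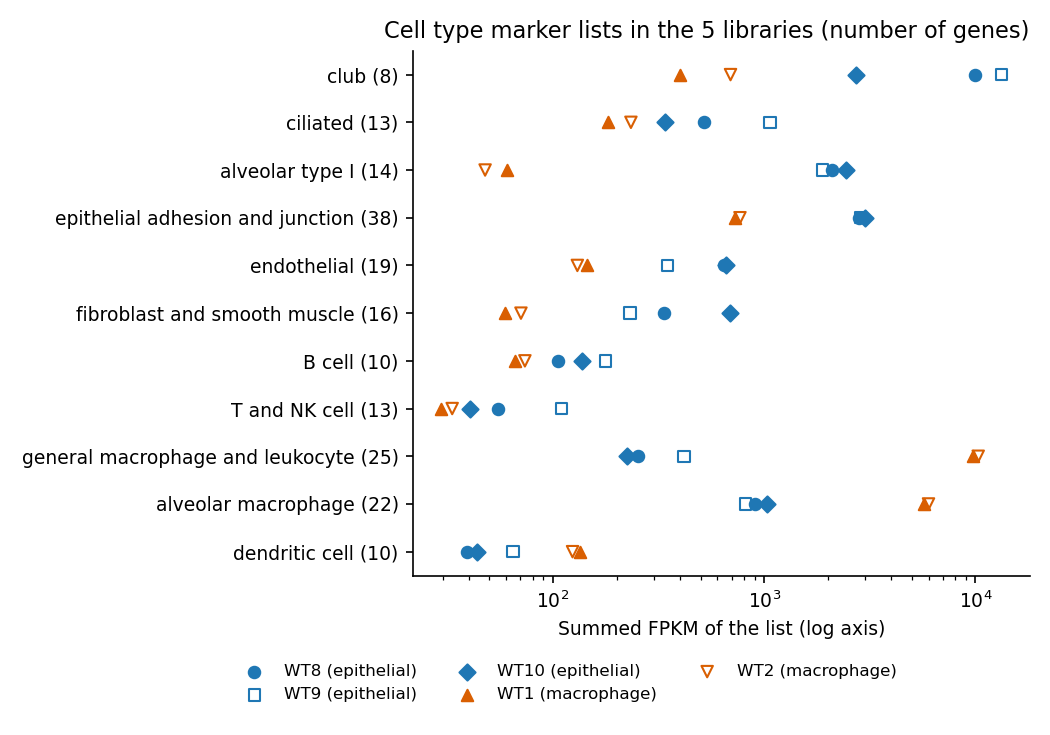
Summed FPKM (log axis) of 11 marker lists in the 3 epithelial libraries (blue) and the 2 macrophage libraries (orange), with the number of genes in each list in brackets. Club and ciliated sums spread widely among the epithelial libraries, WT9 highest and WT10 lowest, while the junction and type I sums lie close together.

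Lung epithelial transcription factors were higher in epithelium for 20 of 23 members (median 3.10). Nkx2-1, the master regulator of lung epithelial identity, read 216, 187 and 197 FPKM against 1.44 and 0.691 FPKM, and Etv5, which maintains type II cells, 359, 229 and 370.3 FPKM against 2.82 and 1.63 FPKM. Foxa2 and Grhl2 differed by 5.02 and 3.98. The 3 members not called were Cebpa, Id2 and Grhl1, of which Id2 was called higher in macrophages without epithelial replicate 8 (-0.43) and under upper-quartile scaling (-0.51). Grhl1 was called so without epithelial replicate 9 (-0.75), under quantile normalization (-1.36) and upper-quartile scaling (-0.75) and in the fit over all 10 groups (-0.63). Cebpa, a factor of both lung epithelium and myeloid cells, read 216, 124 and 193 FPKM in epithelium and 181 and 185 FPKM in macrophages, so the groups overlapped. Macrophage factors were higher in macrophages for 15 of 23 members (median -1.63), a list that by mistake holds Car4, a carbonic anhydrase. Pparg, required by alveolar macrophages, read 122 and 127 FPKM in macrophages and 4.50, 5.01 and 2.68 FPKM in epithelium. Egr2 and Cebpb differed by -5.55 and -4.47. Maf, Bach2 and Gata2 were higher in epithelium and low on both sides, at most 10.05 FPKM, and all 3 calls were lost under quantile normalization (0.14, 0.54 and 0.99). Maf also lost its call without macrophage replicate 2 (0.80, adjusted p = 0.124 by limma).

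Most genes of secretion and barrier function were higher in epithelium. Genes of surfactant lipid synthesis were higher there for 20 of 26 members (median 1.21), led by Scd1, a fatty acid desaturase, at 2467, 1666 and 2812 FPKM against 23.6 and 21.1 FPKM. Lpcat1, which makes the main surfactant phospholipid, and Fasn, fatty acid synthase, differed by 5.86 and 5.03. The 5 members higher in macrophages were Chkb, Elovl6, Dgat1, Dgat2 and Lpin1, of which the last 3 act in triglyceride synthesis. Dgat1 lost its call without macrophage replicate 1 (-0.74) or 2 (-0.71) and in the fit over all 10 groups (-0.72). Ion and water transport genes were higher in epithelium for 14 of 18 members (median 3.14), with Scnn1a, the sodium channel that drains the airspace, at 131, 129 and 140.3 FPKM against 0.728 and 0.999 FPKM. Secreted antimicrobials and mucins were higher there for 7 of 11 members (median 3.55). Slpi, a protease inhibitor, went the other way, at 342 and 316 FPKM in macrophages and 29.9, 28.8 and 36.5 FPKM in epithelium. Basement membrane genes and their receptors were higher in epithelium for 20 of 21 members (median 2.96), with Bcam and Lamb3 at 4.92 and 5.56 and Nid2, which lost its call without epithelial replicate 8 (-0.77) and with a pseudocount of 0.1 (-1.88), the exception.

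The macrophage lists ran the other way. Alveolar macrophage genes were higher in macrophages for 21 of 22 members, against 22.7% of all genes, with a median of -5.02, and general macrophage and leukocyte genes for 25 of 25, with a median of -4.82. Mrc1, the mannose receptor, read 226 and 241 FPKM in macrophages and 0.775, 3.87 and 0.0587 FPKM in epithelium. Cidec, a lipid droplet protein, read 171 and 199 FPKM against 0.299, 1.25 and 0.0222 FPKM. The exception was Fabp5, a fatty acid binding protein, at 645, 518 and 781 FPKM in epithelium and 248 and 248 FPKM in macrophages, a difference of 1.36 (SE 0.17, limma, adjusted p = 0.000543). Fabp5 was therefore abundant on both sides, and the groups did not overlap.

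Uptake and breakdown genes lay mostly with macrophages. Scavenger and phagocytic receptors were higher there for 18 of 24 members (median -4.42), and genes of pathogen sensing for 17 of 20 (median -1.77) with none higher in epithelium. Axl, a receptor for dying cells, read 344 and 367 FPKM in macrophages and 3.54, 2.51 and 5.45 FPKM in epithelium, and Tlr2, a receptor for bacterial lipopeptides, 459.5 and 451 FPKM against 1.17, 4.65 and 0.805 FPKM. Cd36, which takes up fatty acids, was higher in epithelium, at 739, 476 and 739.5 FPKM against 129 and 119.8 FPKM. Genes of lipid uptake, oxidation and efflux were higher in macrophages for 19 of 27 members (median -1.69) and lysosomal genes for 22 of 32 (median -1.49). Of the 19 lipid calls, 17 were left without the filter or without the intensity trend and 16 without epithelial replicate 8. The oxidation genes Acadm, Cpt2 and Hadha lost their calls without that replicate (-0.28, -0.48 and -0.58). Lipid calls were also lost without either macrophage library. Abcg1, a cholesterol exporter, read 308 and 291 FPKM in macrophages and 3.12, 4.87 and 1.25 FPKM in epithelium. Ctsd, a lysosomal protease, read 2464 and 2586 FPKM against 168, 206 and 182 FPKM. The 6 lysosomal genes higher in epithelium were Ctsh, Lamp2, Gaa, Cd63, Atp6v1a and Smpd1, and Npc2, a cholesterol carrier found in lamellar bodies, read 1052, 1048 and 1164 FPKM in epithelium against 127 and 133 FPKM. Lamp1 read 388, 313 and 424 FPKM and 383 and 395 FPKM and was not called.

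Macrophages also carried a short set of genes from the epithelial lists and the keratins at levels of the epithelium's own order or above. The 5 epithelial lists and the keratins hold 132 genes in the table, of which 29 had at least 5 FPKM in both macrophage libraries, against 43.5% of all genes in the table. Of these 29, 19 were higher in epithelium, 7 higher in macrophages (4 of them the genes listed at 0 in epithelium) and 3 not called. Krt19, a keratin of simple and ductal epithelia (GRCm38 chromosome 11, 100140810 to 100148665), read 363 and 402 FPKM in macrophages and 51.4, 79.95 and 50.1 FPKM in epithelium. Every macrophage value was above every epithelial value, 6.32-fold in the means, for a log2 difference of -2.67 (SE 0.21, limma, adjusted p = 6.46e-05). Krt79 (chromosome 15, 101929332 to 101940324) read 205 and 237 FPKM in macrophages and 0.375, 1.43 and 0.0352 FPKM in epithelium. It was the highest but one of the keratins in macrophages and close to absent from epithelium, a difference of -7.19 (SE 0.35, limma, adjusted p = 8.53e-06). Krt79 entered this set only as a keratin. It is also a member of the alveolar macrophage list and is counted in both. Perp, a desmosome-associated membrane protein, read 87.7 and 90.3 FPKM in macrophages and 22.04, 24.4 and 26.9 FPKM in epithelium, or 3.64-fold more. Krt7, Krt8 and Krt18, which epithelia carry with Krt19, were at most 2.28 FPKM in macrophages.

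Junction genes near parity came next. F11r (JAM-A), a tight junction adhesion molecule, read 82.5 and 82.03 FPKM in macrophages and 94.3, 89.00 and 98.3 FPKM in epithelium and was not called (difference 0.19, SE 0.09, adjusted p = 0.123). Marveld2 (tricellulin) read 13.6 and 13.02 FPKM against 10.2, 9.72 and 12.2 FPKM and was not called either (adjusted p = 0.126). The calls of both moved with scaling: F11r passed toward epithelium under quantile normalization (0.27), and Marveld2 toward macrophages under quantile normalization (-0.61) and upper-quartile scaling (-0.47). Spint1, an inhibitor of membrane serine proteases, read 37.8 and 40.8 FPKM against 60.00, 69.1 and 66.1 FPKM, or 60.4% of the epithelial mean. Jup (plakoglobin) and Ocln (occludin) stood at 57.4% and 36.5%. Cdh1 read 16.4 and 17.2 FPKM in macrophages, 8.75% of the epithelial mean. Tppp3, a microtubule protein abundant in ciliated cells, read 174 and 224 FPKM in macrophages and 226, 483 and 171 FPKM in epithelium, while no other ciliated gene reached 5 FPKM in either macrophage library.

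Other epithelial genes were in macrophages at a small share of the epithelial level. Among 59 epithelial list genes with a mean of at least 20 FPKM in epithelium, the macrophage mean was under 2% of the epithelial mean in 35, under 5% in 44, between 5% and 20% in 7 and 20% or more in 8. The median was 1.38%, and in WT neutrophils it was 1.59%. Sftpd stood at 0.349%, Ager at 1.35%, Napsa, a protease of type II cells, at 3.39% and Scgb1a1 at 6.40%, against 0.759%, 2.45%, 5.47% and 9.73% in neutrophils. The macrophage mean was within 2 times the neutrophil mean in 32 of the 59 genes, more than 2 times above it in 12 and less than 0.5 times in 15. Whether RNA of epithelial origin contributes to these low values was not tested. In bulk samples, fewer cells of a type and less RNA per cell cannot be told apart.

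The 29 genes were also set beside WT neutrophils. This comparison shares the macrophage libraries with the first, and the 29 were chosen for their macrophage level, so its values are a description. Of 10247 genes tested, 61.2% were higher in macrophages than in neutrophils and 22.6% lower, or 83.8% in all. Of the 29, 13 were called higher in macrophages, a smaller share than of all genes, among them Krt19, Krt79, Tppp3, Perp, F11r, Epcam, Spint1, Jup, Cdh1, Abca3, Marveld2 and Ocln. Their macrophage means were 2.02 to 259 times the neutrophil means, leaving out Krt79 (listed at 0 in 1 neutrophil library), and their median was 60.4% of the epithelial mean. Krt19 read 0.802, 1.15 and 2.48 FPKM in neutrophils, a macrophage minus neutrophil difference of 7.33. Epcam, Spint1, Perp and F11r differed by 4.63, 4.77, 4.64 and 4.34. Tppp3 and Jup were also high in WT monocytes, at 219 and 149 FPKM and 34.02 and 27.4 FPKM. Abca3 read 19.7 and 16.9 FPKM there, above its 15.6 and 16.0 FPKM in macrophages. F11r and Ocln lay between neutrophils and macrophages in monocytes, at 15.6 and 12.6 FPKM and 3.08 and 2.70 FPKM. Krt19 read 1.53 and 1.07 FPKM and Spint1 0.857 and 1.54 FPKM in monocytes. The other 16 genes were not called (13) or were higher in neutrophils (Napsa, Chi3l1 and Krt80). For the 12 of those 16 not listed at 0 in epithelium, the median macrophage level was 3.04% of the epithelial mean, and all 16 had macrophage means of 0.0575 to 1.45 times the neutrophil means. Among them are the secreted proteins Scgb1a1, Sftpd, Sftpb and Chi3l1, and also the receptor Ager, the enzyme Lpcat1 and the keratin Krt80. The count of 13 was 12 under either scaling and 10 to 14 when 1 library was left out, with 10 without either macrophage library.

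**Figure D3:**
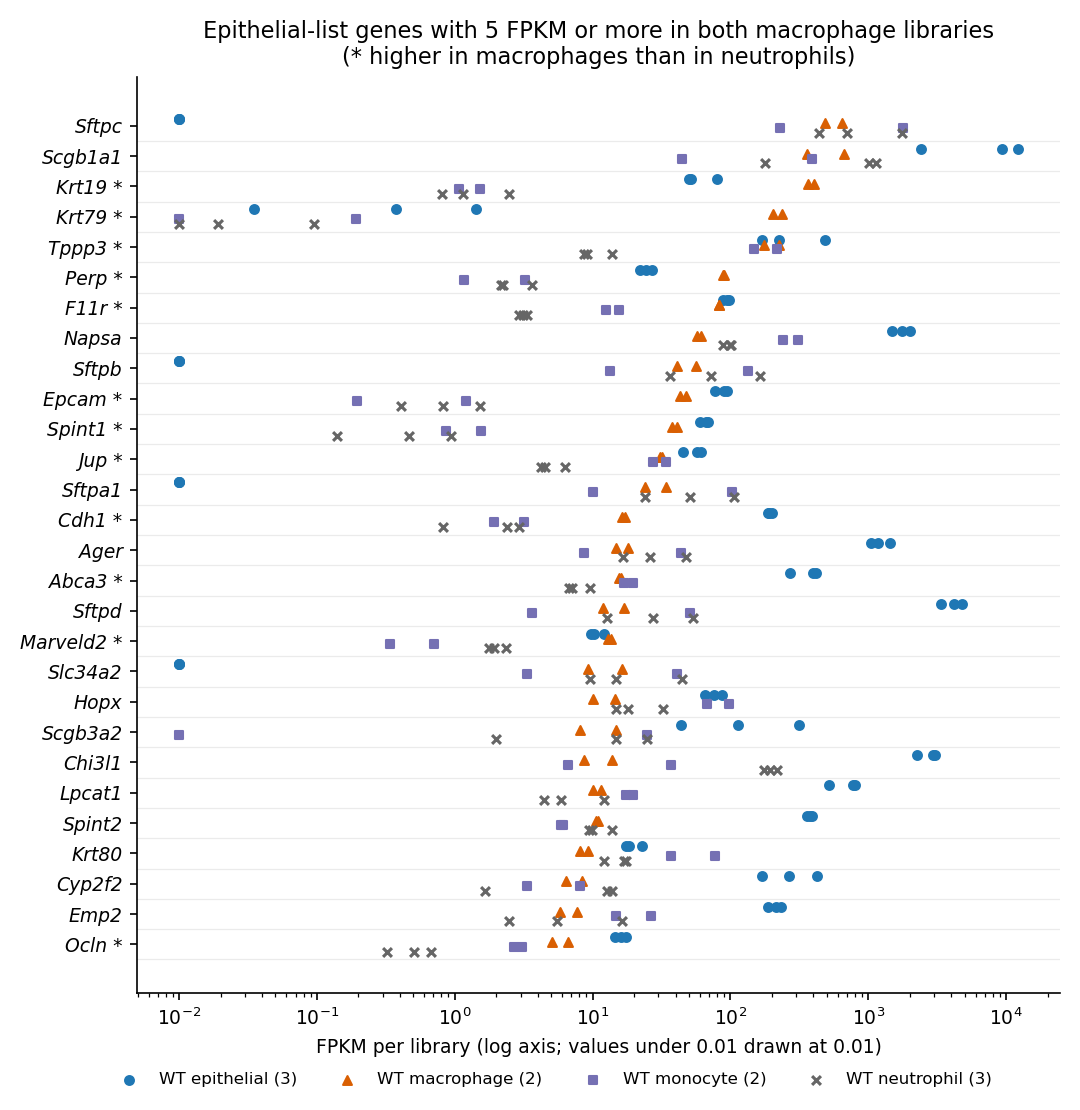
FPKM in each library (log axis) for 28 of the 29 epithelial list genes with at least 5 FPKM in both macrophage libraries, ordered by macrophage mean, with epithelial (blue circles), macrophage (orange triangles), monocyte (purple squares) and neutrophil (grey crosses) libraries. In the rows marked with an asterisk the macrophage points lie above the neutrophil points, and for Krt19, Krt79, Perp and (narrowly) Marveld2 also above the epithelial points.

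**Figure D4:**
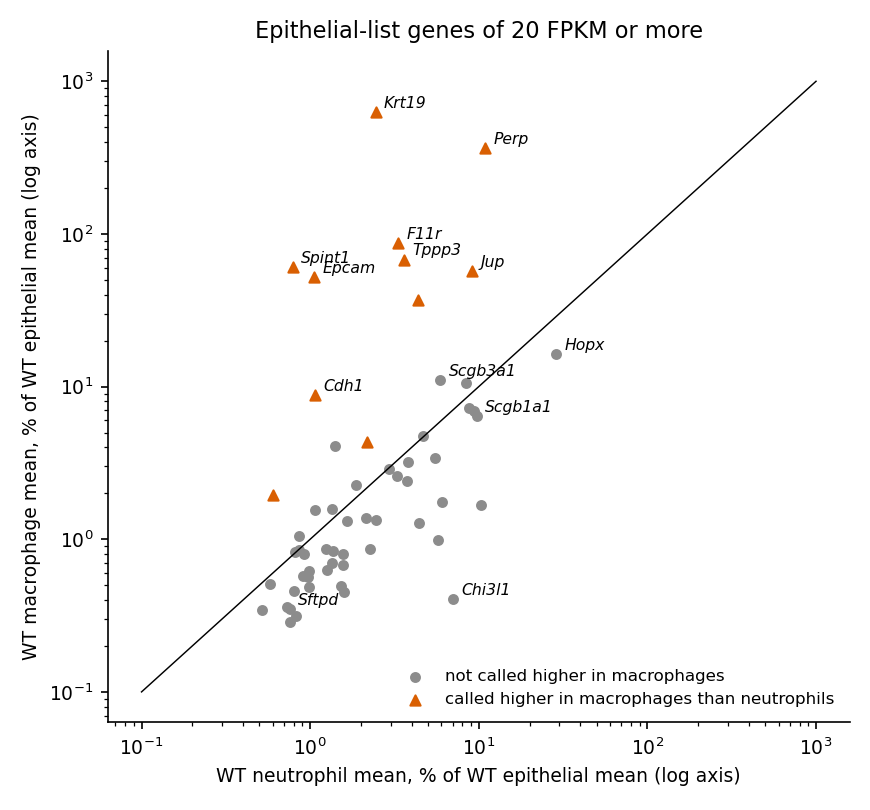
Mean level in WT macrophages (y axis) and in WT neutrophils (x axis), each as a percentage of the WT epithelial mean on log axes, for 59 epithelial list genes of at least 20 FPKM in epithelium. Of these, 32 lie within 2 times of the diagonal of equal levels, and Krt19, Perp, F11r, Tppp3, Spint1, Epcam, Jup and Cdh1 lie well above it.

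A search of the whole table for genes at 20 FPKM or more in epithelium, 5 FPKM or more in both macrophage libraries and under 1 FPKM in every WT monocyte and neutrophil library found 3. Snx24, a sorting nexin, read 15.5 and 19.9 FPKM in macrophages and 20.4, 24.03 and 22.5 FPKM in epithelium. Tc2n read 14.1 and 15.1 against 41.2, 30.6 and 40.99 FPKM. Gpd1, the cytosolic glycerol-3-phosphate dehydrogenase, read 7.84 and 9.33 against 31.8, 31.4 and 34.1 FPKM. These 3 were chosen on these values and carry no test as a pattern.

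In the reverse direction, most macrophage genes were at a small share of the macrophage level in the epithelial libraries. Of 47 alveolar macrophage and leukocyte genes, 16 had at least 5 FPKM in all 3 epithelial libraries, against 47.3% of all genes in the table, and the median epithelial level was 2.29% of the macrophage mean. By library that median was 1.68% in WT8, 3.16% in WT9 and 1.16% in WT10. Ptprc, the pan-leukocyte protein CD45, read 16.3, 37.6 and 20.6 FPKM in epithelium and 169.8 and 171 FPKM in macrophages, and Ctss, a lysosomal protease, 13.9, 46.9 and 7.41 against 2061 and 2112 FPKM. Both were highest in WT9 among the epithelial libraries. Fabp5, Lgmn and Bhlhe40 were the highest relative to macrophages, at 261%, 66.8% and 42.1%, and none of these 3 was higher in WT9 than in both other epithelial libraries. Lgmn, a lysosomal protease, lost its call as higher in macrophages without macrophage replicate 2 (difference -0.50, adjusted p = 0.0557 by limma).

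The colony-stimulating ligands Csf2, Il34 and Csf1 were higher in epithelium and their receptors in macrophages. Csf2, which encodes GM-CSF, read 13.2, 5.65 and 3.30 FPKM in epithelium and 1.27 and 0.0593 FPKM in macrophages. Its difference was 2.25 (SE 0.55, limma, adjusted p = 0.0111), and it was not called without macrophage replicate 2 (1.70, adjusted p = 0.0771) or under quantile normalization (1.65, adjusted p = 0.0618). Its receptor chain Csf2ra read 362 and 367 FPKM in macrophages and 8.75, 11.2 and 6.46 FPKM in epithelium, and the beta chain gene Csf2rb2 44.1 and 43.4 against 0.338, 0.711 and 0.00815 FPKM. Csf2rb2 has a near-identical neighbour, Csf2rb, so reads of the pair may have been split between them. The ligands Il34 and Csf1 were higher in epithelium, at 25.3, 20.1 and 26.5 FPKM and 4.65, 3.83 and 5.57 FPKM against 0.403 and 0.0810 FPKM and 1.41 and 2.12 FPKM. Their receptor Csf1r read 60.9 and 68.8 FPKM in macrophages and 3.19, 2.81 and 2.74 FPKM in epithelium. Over the list of colony-stimulating factors, receptors and their signal carriers, 4 of 10 members were higher in epithelium, near the 41.4% of all genes, and 6 in macrophages, against 22.7%. The epithelial members were the 3 ligands and the kinase Jak2. Csf1 lost its call without macrophage replicate 1 (0.86) and under quantile normalization (0.33), and Jak2 without macrophage replicate 1 (0.57) or 2 (0.33), without epithelial replicate 10 (0.40) under both scalings (0.22 and 0.27) and in the fit over all 10 groups (0.45).

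Other ligands and receptors were placed in several ways. Cd200, a ligand that restrains myeloid cells, read 219, 154 and 238 FPKM in epithelium and 30.3 and 28.7 FPKM in macrophages, and its receptor Cd200r1 0.392, 1.94 and 0.910 FPKM against 35.04 and 30.8 FPKM. Cd47 and its receptor Sirpa were both higher in macrophages, with differences of -2.20 and -6.42. Il33, an alarm cytokine of barrier cells, read 217, 167 and 239 FPKM in epithelium against 1.32 and 0.706 FPKM, while its receptor gene Il1rl1 was under 1 FPKM in all 5 libraries. Il18 ran the other way, at 308 and 323 FPKM in macrophages and 3.34, 7.76 and 0.412 FPKM in epithelium, and its receptor Il18r1 was on the epithelial side, at 49.3, 50.5 and 41.03 FPKM against 0.628 and 1.45 FPKM. Tnf, Il1a and Il1rn were higher in macrophages, with differences of -6.68, -6.08 and -5.62, and Il1r1 was higher in epithelium (2.67).

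Tgfb1 read 117 and 136 FPKM in macrophages against 13.9, 18.2 and 11.5 FPKM in epithelium, and the integrin subunit Itgb6, which pairs with Itgav to activate that growth factor, 2.52, 1.89 and 2.30 FPKM in epithelium against 0 and 0.0107 FPKM. Gja1, the gap junction protein connexin 43, read 52.3, 40.8 and 58.7 FPKM in epithelium and 0.300 and 0.277 FPKM in macrophages. Of 34 members of the list of signals and receptors tested, 12 were higher in epithelium, against 41.4% of all genes. Another 20 were higher in macrophages, against 22.7% (median -1.47). Chemokine genes were higher in macrophages for 11 of 16 members (median -3.54), among them Cxcl2 at 1199.6 and 1035 FPKM against 4.95, 15.4 and 2.10 FPKM and Ccl3 at 293 and 334 against 7.58, 4.63 and 4.38 FPKM. Cxcl16 and Cxcl17 were higher in epithelium, the latter at 45.9, 96.01 and 46.9 FPKM against 0.325 and 0.574 FPKM. Cxcl16 (0.44) lost its call without macrophage replicate 1 or 2 (0.41 and 0.47) under upper-quartile scaling (0.26) and in the fit over all 10 groups (0.44).

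**Figure D5:**
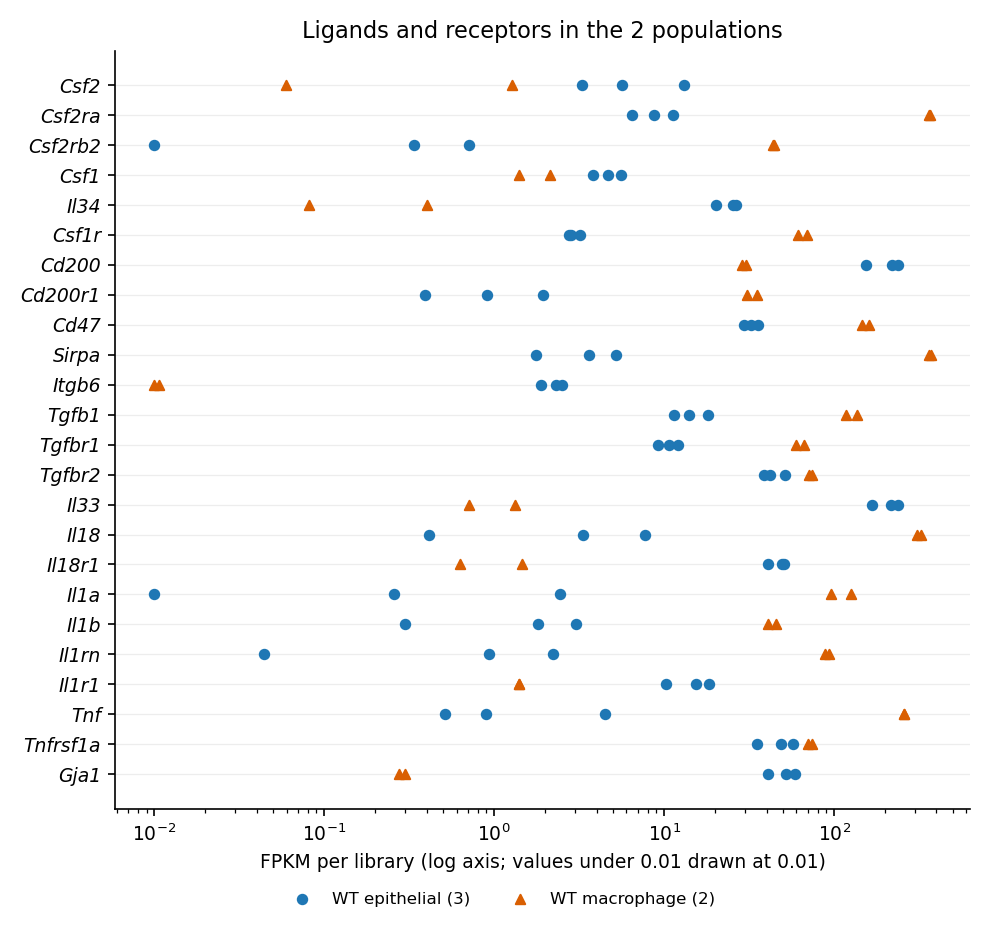
FPKM in each epithelial (blue circles) and macrophage (orange triangles) library, on a log axis, for 24 ligands and receptors. Csf2, Il34, Cd200 and Il33 lie on the epithelial side, and Csf2ra, Csf1r, Cd200r1, Il18 and Tnf on the macrophage side.

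Class II antigen presentation genes were abundant on both sides. The class II genes H2-Aa and Ciita read 1013, 842 and 1065 and 8.93, 9.09 and 10.4 FPKM in epithelium and 883 and 732 and 12.6 and 7.33 FPKM in macrophages, the groups overlapped and neither was called. H2-Aa was called higher in epithelium without epithelial replicate 9 (0.37, adjusted p = 0.0266 by limma). Cd74, the invariant chain, read 2827, 2852 and 3433 FPKM in epithelium and 2004 and 1709 FPKM in macrophages, a difference of 0.71 (adjusted p = 0.00269, limma, and 0.133 in a fit over all 10 groups). H2-DMa, which helps load peptide, was higher in macrophages (-2.17). In all, 1 of 9 class II genes was higher in epithelium, against 41.4% of all genes. Another 4 were higher in macrophages, against 22.7%, and 4 were not called. Of the 4 macrophage calls, 2 were left under quantile normalization, in the fit over all 10 groups and without the intensity trend, and 1 without macrophage replicate 1. Complement genes split much as all genes did. Of 13 members, 5 were higher in epithelium, near the 41.4% of all genes, and 3 in macrophages, near the 22.7%. Of the 5, 2 were left under quantile normalization and 3 without epithelial replicate 10. Calls were also lost without either macrophage library. C3 read 107, 66.2 and 103 FPKM in epithelium against 30.97 and 33.4 FPKM. C5ar1, the receptor for the active fragment of the Hc product, read 77.1 and 88.7 FPKM in macrophages against 0.640, 1.49 and 0 FPKM.

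Proliferation genes and early response genes were higher in macrophages. Cell cycle genes were so for 24 of 25 members (median -1.79), with Mki67 at 16.7 and 14.3 FPKM in macrophages and 0.594, 1.30 and 1.42 FPKM in epithelium, and Top2a at 19.8 and 18.04 against 0.940, 1.81 and 2.70 FPKM. The exception, Bub1, was not called (difference 0.00), and after quantile normalization it was higher in macrophages (-0.66). Immediate early and heat shock genes, which many stimuli induce quickly, were higher in macrophages for 16 of 17 members (median -1.85), with Fos at 1273 and 1409 FPKM against 224, 349 and 497 FPKM.

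Markers of other lung cells moved with the groups too. Endothelial genes were higher in the epithelial libraries for 18 of 19 members (median 1.76). Of these calls, 13 were left under quantile normalization and 15 without epithelial replicate 8, and some were lost without either macrophage library. The summed level of the endothelial list was 349 to 662 FPKM in epithelial libraries and 130 to 145 FPKM in macrophages, against 681 to 1395 FPKM in unsorted lung. None of the 19 was at 0 in the epithelial libraries. Fibroblast and smooth muscle genes were higher there for 11 of 15 members (6 of these without macrophage replicate 1, median 2.19 with all libraries), with sums of 231 to 687 FPKM against 59.4 to 70.5 FPKM. Acta2, smooth muscle actin, read 8.85, 5.70 and 133 FPKM, so WT10 held most of it. It was not called with all libraries (limma, adjusted p = 0.0642) and was called without epithelial replicate 9 (3.84) or 10 (1.68), with a pseudocount of 0.1 (3.55) and in the fit over all 10 groups (3.03). B cell genes were higher in the epithelial libraries for 7 of 9 members (median 1.45) and T and NK cell genes for 6 of 12 (median 1.08), with B cell sums of 105 to 177 FPKM against 66.2 to 73.6 FPKM and T and NK sums of 40.4 to 110 FPKM against 29.6 to 33.3 FPKM. WT9 had the highest sum of both lymphocyte lists. The 6 of 12 lie near the 41.4% of all genes, and only 1 of those calls was left under quantile normalization and 2 without either macrophage library. The basement membrane genes above, such as Col4a1 (85.7, 61.9 and 95.2 FPKM), are also made by endothelial and stromal cells, and the part of such cells in those results was not tested.

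Dendritic cell genes were higher in the macrophage libraries for 8 of 10 members (median -2.55), with sums of 124 and 134 FPKM against 39.0 to 64.7 FPKM in epithelium. Without either macrophage library 7 members were left to test, and some of those lost their call. Flt3, the receptor that defines dendritic cells, read 14.7 and 9.83 FPKM in macrophages, and Itgae, Batf3 and Clec9a read 20.2 and 14.9, 18.5 and 25.6 and 14.7 and 10.9 FPKM. Flt3, Itgae and Batf3 were under 2 FPKM in every epithelial library. The part of CD11c+ dendritic cells in the carried epithelial genes was not tested. Interstitial macrophage and monocyte genes were higher in macrophages for 4 of 13 members, against 22.7% of all genes, and fewer of these were called without either macrophage library. In epithelium 2 were higher, against 41.4% of all genes, with Apoe at 478, 328 and 599.6 FPKM against 90.8 and 92.4 FPKM in macrophages. Neutrophil genes were called higher in macrophages for 4 of 9 members, against 22.7% of all genes, and at low levels. Of these 4, Mmp8 is listed at 0 in all 3 epithelial libraries and carries no direction. Another, S100a9, is listed at 0 in every neutrophil library and lost its call in 6 alternatives, and 1 of the 4 calls was left without either macrophage library. In that list 1 was higher in epithelium, the antimicrobial protein gene Lcn2. The mesothelial list had 1 member tested, Upk1b, called as higher in epithelium and turned under quantile normalization (-0.15). It also lost its call without macrophage replicate 1 (0.70) or 2 (0.81) and with a pseudocount of 5 (0.25). The erythroid list had 1, Alas2, not called with all libraries and called higher in epithelium without epithelial replicate 9 (2.46) or 10 (1.17).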

How the data were processed

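Libraries were made with an unstranded TruSeq kit from RNA of sorted cells, per the labels' protocols, so a gene and its antisense neighbour cannot be told apart. The authors deposited FPKM per gene for 16024 genes in 27 libraries; per the submitters' processing notes they used CASAVA 1.8.2, TopHat2, Cufflinks and Cuffdiff with mm10 (GRCm38). The total depth is unknown and its precision cannot be given.

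FPKM were raised by 1, put on the log2 scale and tested with limma 3.58.1 (R 4.3.3; intensity trend, empirical Bayes, two-sided, Benjamini-Hochberg over all genes tested), for genes that reached 1 FPKM in 2 or more of the 5 libraries. A difference on this scale understates the change of low genes. Groups followed the cell type labels. WT macrophages were compared with WT neutrophils in the same way. The scripts were tested on simulated data. The comparison and its 34 gene lists (677 entries, 616 found) were chosen with earlier results of these data known. Genes were named by fixed rules: the 12 largest differences each way, up to 4 per list, epithelial genes with 5 FPKM or more in both macrophage libraries and the reverse, and genes listed at 0 in 1 group with 50 FPKM or more in the other. Genes named beyond these were chosen after their values were seen. Some genes counted in the lists are not reported here by name. Alternatives changed the pseudocount (0.1 or 5), the filter, the scaling, the model or left out 1 library.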

Additional observations from a re-analysis of the deposited data

How the results depend on the processing

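No paired analysis was possible because the groups compared share no replicate numbers. Total counts of calls, over all genes and over all lists together, kept within 1.5 times of the reported ones under the following alternatives. These were pseudocounts of 0.1 and 5, no filter, a filter of 5 FPKM, both scalings, a fit of all 10 groups, robust moderation, no intensity trend and removal of genes listed at 0. Counts of single lists moved more. Under quantile normalization, T and NK cell genes higher in epithelium went from 6 to 1 and colony-stimulating genes from 4 to 1. Type II genes higher in macrophages went from 4 to 0 with genes listed at 0 removed. Leaving out 1 library gave 3336 to 5017 genes higher in epithelium and 1557 to 2810 higher in macrophages; the latter count was 1581 without macrophage replicate 1 and 1557 without macrophage replicate 2, where the lone library left is assumed to vary like the epithelial ones. After quantile normalization Upk1b read -0.15 (adjusted p = 0.603), Bub1 -0.66 (adjusted p = 0.0265) and Sox17 -0.018 (adjusted p = 0.965, limma), each reversed, and Cyp2f2 ranged from -0.77 to 0.47 for macrophages minus neutrophils when 1 library was left out, the lower value without WT neutrophil replicate 6 (adjusted p = 0.00347). The cause was not tested. Of 460 listed or named genes called, 74 lost the call in at least 1 of 15 alternatives, and 51 did so in an alternative that kept all libraries. Genes that an alternative no longer tested, such as Fabp1 without either macrophage library, were not counted as lost. The filter was applied again after a library was left out. Genes that reached 1 FPKM only in macrophages were therefore not tested with 1 macrophage library left. In both such fits, 19 of 22 alveolar macrophage, 16 of 24 scavenger receptor and 15 of 20 pathogen sensing genes were left to test. Part of the fall in genes higher in macrophages there thus comes from genes no longer tested. No counts were analysed, so depth sets no stated limit on low values, and with 2 macrophage libraries their spread is known poorly.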

Other observations

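Over all genes in the table, 2058 had at least 20 FPKM in all 5 libraries. Of these, 914 were not called (limma), 556 were higher in epithelium and 588 were higher in macrophages.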
